A study of Mus musculus with 13 samples.

Results

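The genes described here are 74 enzymes of drug and xenobiotic metabolism measured by RNA sequencing in mouse lung. They are the rows whose symbol belongs to the cytochrome P450 families 1 to 4, the flavin monooxygenases (Fmo), the glutathione S-transferases of the alpha, mu, pi, theta, omega, kappa and zeta classes (Gst), the carboxylesterase 1 group (Ces1), the UDP-glucuronosyltransferase 1 family (Ugt1), aldehyde dehydrogenase families 1a and 3a (Aldh), the aldehyde oxidases (Aox) or the epoxide hydrolases (Ephx). Rows marked as pseudogenes were left out, and a raw sum above 130 counts over the 13 libraries was required. Of 54513 rows in the table, 144 matched by symbol and 74 met the count threshold, and all 74 passed the filter on low counts that left 20468 genes for testing. Just inside the threshold lay Cyp2a4 with 166 counts and Gsta2 with 169, and just outside it Fmo6 with 124 and Cyp2b13 with 87.

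The 13 libraries came from lungs of male C57Bl/6 mice, aged 7 to 8 weeks, at day 21, and no genetic modification is labelled. The groups were saline in batch 1 (n = 5, replicates 1 to 5), bleomycin in batch 1 (n = 4, replicates 5 to 8) and bleomycin in batch 2 (n = 4, replicates 1 to 4). Replicate numbers are those of the library names, and the titles number the saline libraries differently. Bleomycin is an antitumour glycopeptide used in mice to injure the lung and bring on scarring; its dose and route are not in the labels. RNA was taken from a 10 µm coronal section of formalin-fixed, paraffin-embedded lung, with 8 ng going into each library. Batch 2 has no saline group, so its comparison with saline holds batch and treatment together and shares the saline libraries with the batch 1 comparison. The title of bleomycin replicate 8 in batch 1 calls it a control, whereas its treatment label and library name say bleomycin. It was kept as bleomycin by its treatment label and library name. Its summed level of 8 matrix fibroblast markers, none of them a member, was 12722 CPM (counts scaled to a common library size), against 1154 to 1518 CPM in saline. Its summed member level was 2201 CPM, within the batch 1 bleomycin range (1988 to 2485 CPM) and outside the saline range (4693 to 5676 CPM). That sum is also the outcome compared below, so it cannot serve to check the label.

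Xenobiotic metabolism runs in steps. Phase I enzymes oxidise or hydrolyse a foreign compound: the P450s insert oxygen with electrons passed on by P450 oxidoreductase, the flavin monooxygenases oxidise nitrogen and sulfur, aldehyde dehydrogenases and oxidases turn aldehydes into acids, and carboxylesterases and epoxide hydrolases add water across esters and epoxides. Phase II enzymes then attach glutathione (Gst) or glucuronic acid (Ugt), and transporters carry the product out. In the mouse lung much of this activity is known from club cells, the secretory cells of the small airways, while Fmo, Aldh1 and some P450 members are also made in the alveoli and the vessel walls. Several families serve the body's own substrates as well, such as retinaldehyde for Aldh1a and fatty acids for Cyp4.

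After bleomycin the enzymes were lower as a group. In batch 1, 32 of 74 members fell and 5 rose at an adjusted p under 0.05, that is 43.2% lower and 6.76% higher, where 13.4% of all genes tested were lower and 17.5% higher. Without bleomycin replicate 8, the library with conflicting labels, 31 fell and 4 rose, beside 12.8% and 13.8% of all genes. The median log2 change of the members was -0.56, beside 0.03 over all genes tested. The members' summed level was 5184 ± 413 CPM over the saline libraries and 2274 ± 226 CPM over the bleomycin libraries of batch 1 (SD, n = 5 and 4). In every batch 1 bleomycin library that sum lay below every saline library. The 12 members with the highest CPM in saline made up 80.7% of the saline sum, and all 12 fell, so the sum mainly follows these genes. Among the members that fell, the fold decrease ran from 1.31 to 7.1 with a median of 2.78. By CPM range, 31 members lay wholly below saline in batch 1 and 2 wholly above, 33 in all; over all genes tested the ranges lay below for 11.3% and above for 14%. Of the 37 members not called, 26 had a log2 change below 0.

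**Figure D1:**
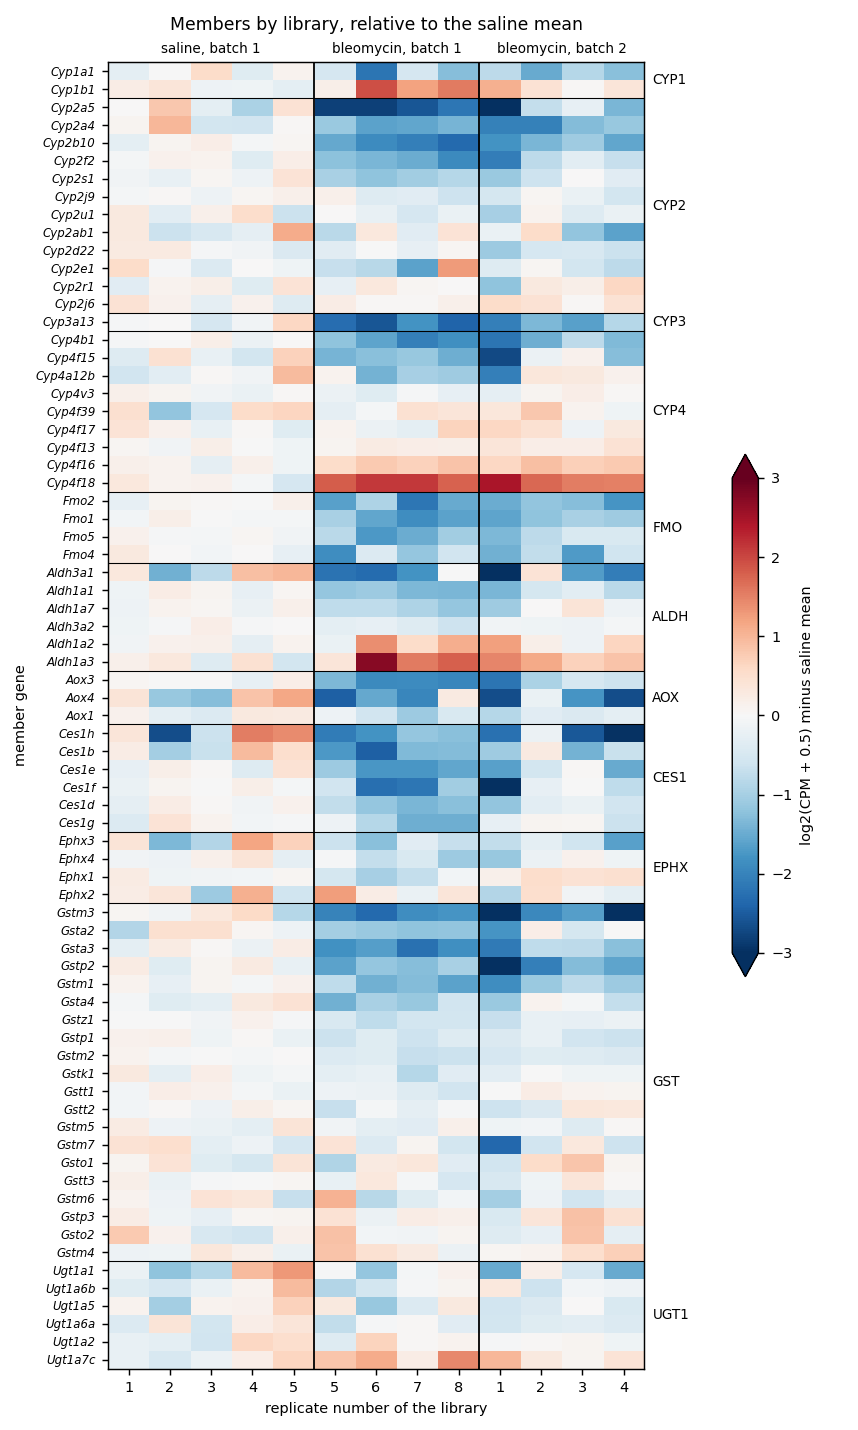
Each row is 1 of 73 members and each column 1 of the 13 libraries, coloured by log2(CPM + 0.5) minus the mean of the saline libraries. Blue (lower) dominates the rows of Fmo1, Fmo2 and the most abundant P450 members in both bleomycin batches, while Cyp4f18 and Aldh1a3 stand out as higher.

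Library totals ran from 6337147 to 28885129 counts with a median of 15859315, and batch 2 replicates 1 and 4 were the shallowest, with 6337147 and 6997429. The batch 2 libraries, replicates 1 to 4, held 8, 1, 0 and 5 members with no count, and the other libraries none. Genes are ranked against each other below only as CPM per kilobase of gene model (CPM/kb); all other levels are CPM.

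Cyp2f2, the P450 of club cells that activates naphthalene and other small aromatic compounds, was the highest member per length at 501 CPM/kb in saline. Its level was 963, 1097, 1073, 786 and 1154 CPM in the 5 saline libraries and 429, 389, 358 and 268 CPM in batch 1 bleomycin. No library of one group reached the other, and Cyp2f2 fell (adjusted p = 0.00193, log2 change -1.49 with SE 0.28). The batch 2 libraries held 240.1, 582, 808 and 625 CPM, with replicate 1 lowest and replicate 3 inside the saline range (log2 change -0.85, adjusted p = 0.0373). Cyp2b10, the classical target of the nuclear receptor CAR in liver, was at 184, 239, 259, 216 and 232 CPM in saline and 77, 60.2, 53.8 and 44.6 CPM in batch 1 bleomycin. It fell from 226 ± 28.2 to 58.9 ± 13.7 CPM (adjusted p = 2.05e-06, log2 change -1.94 with SE 0.17), and batch 2 gave 64.8, 86.4, 107 and 75.6 CPM (log2 change -1.44). All 8 bleomycin libraries lay below all saline libraries for Cyp2b10. The upstream 160 bases of both genes are shown because these 2 P450s were among the most abundant members that fell; they are RefSeq sequence on GRCm38.p6, plus strand, chr7:27119795-27119954 for Cyp2f2 and chr7:25897498-25897657 for Cyp2b10, ending 1 base before the transcript start. Capitals mark GCGTG, the core bound by the aryl hydrocarbon receptor (AHR), on either strand.
Cyp2f2: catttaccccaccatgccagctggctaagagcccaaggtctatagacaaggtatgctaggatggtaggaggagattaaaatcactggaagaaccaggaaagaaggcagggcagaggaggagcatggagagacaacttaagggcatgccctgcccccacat
Cyp2b10: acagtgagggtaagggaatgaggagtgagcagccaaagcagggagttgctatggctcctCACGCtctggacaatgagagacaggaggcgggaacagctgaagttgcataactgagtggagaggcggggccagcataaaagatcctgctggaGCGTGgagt
The Cyp2b10 window holds the core at -101 and -9 and the Cyp2f2 window does not hold it.

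Cyp2a5, which hydroxylates coumarin and oxidises nicotine-like compounds, stood at 80.1, 139.5, 64.7, 41.1 and 107 CPM in saline and 11, 10.9, 12.9 and 17.3 CPM in batch 1 bleomycin, a separation with no overlap (adjusted p = 0.00479, log2 change -2.72 with SE 0.57). In batch 2 the values were 6.48, 48.6, 66.6 and 30.6 CPM, spread from below the batch 1 range to inside the saline range, and the gene was not called (log2 change -1.16, adjusted p = 0.135). Cyp2a4, its close paralog, was near the floor of detection, with 1.66, 3.59, 0.912, 0.88 and 1.62 CPM in saline and 0.453, 0.174, 0.197 and 0.284 CPM in batch 1 bleomycin (adjusted p = 0.0108, log2 change -2.59 with SE 0.70). These 2 genes share 37% and 38% of their 50-base words with another gene, so reads may be split between them and each value is uncertain. Cyp2s1, an extrahepatic P450 of epithelia, fell from 86.5 ± 16.3 to 42 ± 4.3 CPM (adjusted p = 0.000981, log2 change -1.04 with SE 0.19) with no overlap, and was at 39, 55.8, 86 and 67.7 CPM in batch 2, not called (adjusted p = 0.0746). Of the 12 Cyp2 members, these 5 fell in batch 1 (41.7%, beside 13.4% of all genes). None rose by edgeR, with 0 at an unadjusted p under 0.05 and 0 by DESeq2 and limma-voom. The other 7 had log2 changes from -0.31 to 0.09. The summed Cyp2 level was 1486 ± 194 CPM in saline, 541 ± 56.9 in batch 1 and 803 ± 298 in batch 2.

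Cyp3a13, a relative of the main drug-metabolising P450 of the human liver and gut, was the one Cyp3 member measured. It was at 5.63, 5.8, 3.94, 5.28 and 9.12 CPM in saline and 0.783, 0.556, 1.3 and 0.691 CPM in batch 1 bleomycin. Every bleomycin value lay below every saline value, the log2 change of -2.83 was the lowest of the 74 members (SE 0.38, adjusted p = 5.41e-05), and batch 2 gave 0.996, 1.94, 1.52 and 2.93 CPM (log2 change -1.68, adjusted p = 0.00315).

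The 9 Cyp4 members, which mainly hydroxylate fatty acids and eicosanoids at the end of the chain, went in both directions: 2 fell and 2 rose in batch 1. These shares were 22.2% each, beside 13.4% lower and 17.5% higher over all genes, and the median log2 change was -0.02. Cyp4b1, the lung P450 that activates 4-ipomeanol, read 181, 187, 207, 164 and 188 CPM in saline and 79.5, 61.3, 44 and 51.1 CPM in batch 1 bleomycin. It fell with no overlap (adjusted p = 0.000251, log2 change -1.65 with SE 0.24), and batch 2 lay lower too, at 40.4, 66.9, 106 and 73.5 CPM (log2 change -1.36). Cyp4f18, which degrades leukotriene B4 in myeloid cells, moved the other way: 1.96, 1.62, 1.64, 1.38 and 0.883 CPM in saline, 6.39, 8.06, 8.03 and 6.18 CPM in batch 1 and 10.3, 6.02, 5.16 and 5.13 CPM in batch 2. All 8 bleomycin libraries were above all saline libraries, and the rise was the highest of any member (batch 1 adjusted p = 2.67e-05, log2 change 2.24 with SE 0.28; batch 2 log2 change 2.12). Cyp4f16 rose by less, from 6.93 ± 0.925 to 11.7 ± 1.06 CPM in batch 1 and 12 ± 1.07 CPM in batch 2, again with no overlap (adjusted p = 0.00153, log2 change 0.76 with SE 0.15; batch 2 log2 change 0.79). The upstream window of Cyp4f18 is given because it was the member that rose the most; it lies on the minus strand at chr8:72009627-72009786, with capitals at the antioxidant response core TGACNNNGC, bound by NRF2 with small MAF proteins, which starts at -140.
Cyp4f18: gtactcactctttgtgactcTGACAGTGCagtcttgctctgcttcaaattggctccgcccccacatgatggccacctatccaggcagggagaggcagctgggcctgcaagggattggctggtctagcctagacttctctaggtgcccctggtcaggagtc

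The 2 Cyp1 members are textbook targets of AHR and metabolise polycyclic aromatic compounds. In batch 1 edgeR called Cyp1b1 higher and did not call Cyp1a1. Cyp1b1, which is made in mesenchymal cells, read 15.2, 16.7, 11.7, 11.8 and 10.4 CPM in saline and 14.8, 50.6, 30.6 and 39.2 CPM in batch 1 bleomycin; replicate 5 lay inside the saline range and the other 3 above it. It rose (adjusted p = 0.00411, log2 change 1.36 with SE 0.30), whereas batch 2 at 27.9, 17.5, 13.2 and 16.7 CPM was not called (log2 change 0.51, adjusted p = 0.242). Cyp1a1 was at 1.62, 2.09, 3.32, 1.51 and 2.28 CPM in saline and 1.32, 0.0694, 1.34 and 0.569 CPM in batch 1 bleomycin, and the bleomycin values all lay below the saline values without passing the test in edgeR (adjusted p = 0.0852, log2 change -1.40 with SE 0.59); DESeq2 and limma-voom called it lower (adjusted p = 0.0482 and 0.0171). Batch 2 held 0.996, 0.408, 0.93 and 0.586 CPM (log2 change -1.57, adjusted p = 0.0777). Their upstream windows, shown for the AHR core in capitals, are on the plus strand at chr9:57697453-57697612 for Cyp1a1, with the core at -54, and on the minus strand at chr17:79715062-79715221 for Cyp1b1, with it at -76 on the opposite strand.
Cyp1a1: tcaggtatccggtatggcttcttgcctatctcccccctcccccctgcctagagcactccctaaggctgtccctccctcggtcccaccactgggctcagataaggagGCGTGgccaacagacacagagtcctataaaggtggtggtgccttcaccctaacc
Cyp1b1: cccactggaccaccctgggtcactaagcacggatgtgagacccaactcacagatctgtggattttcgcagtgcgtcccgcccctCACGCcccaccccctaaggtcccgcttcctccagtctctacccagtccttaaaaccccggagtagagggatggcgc
Both windows hold the core, which is a match of letters and does not show binding.

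Of the flavin monooxygenases, Fmo1, Fmo2, Fmo4 and Fmo5 fell in both batches. Fmo2, the lung form and the second most abundant member per length at 166 CPM/kb, read 784, 974, 943, 914 and 1028 CPM in saline. The batch 1 bleomycin libraries held 297, 488, 207 and 326 CPM and the batch 2 libraries 329.8, 408, 379 and 269.6 CPM. The highest bleomycin library was below the lowest saline library (adjusted p = 0.000103, log2 change -1.49 with SE 0.20 in batch 1, log2 change -1.42 in batch 2). Fmo1, the broad-substrate form of kidney and lung, went from 197, 237, 208, 201 and 202 CPM to 105, 70.8, 57.3 and 68 CPM in batch 1, again with no overlap (adjusted p = 1.16e-05, log2 change -1.47 with SE 0.16), and batch 2 held 69.1, 90.4, 106 and 99.4 CPM (log2 change -1.19). Fmo5 and Fmo4 had log2 changes of -1.26 and -1.05 in batch 1, and the call on Fmo4 (adjusted p = 0.0444) was lost in 9 of 18 alternative fits.

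**Figure D2:**
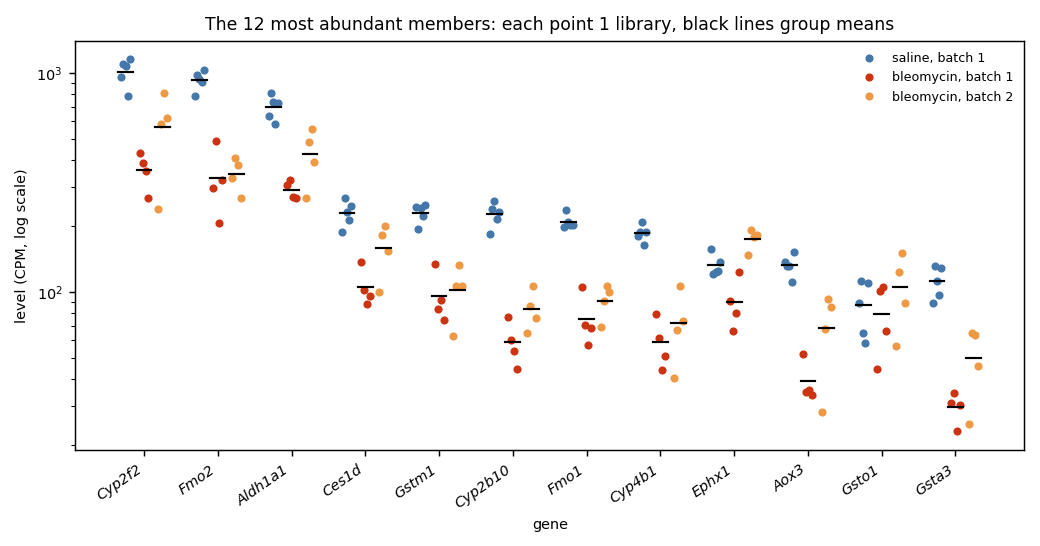
The 12 members with the highest mean over the batch 1 libraries, in CPM on a log axis; each point is 1 library and each black line a group mean. For Fmo2, Cyp2b10, Cyp4b1 and Fmo1 all 8 bleomycin libraries lie below saline, whereas for Gsto1 the groups overlap and the batch 2 values of Ephx1, from 147 to 191 CPM, lie in the upper saline range or above it.

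Aldehyde dehydrogenases split by gene. Aldh1a1, which oxidises retinaldehyde to retinoic acid and also drug aldehydes, read 634, 810.0, 736, 582 and 727 CPM in saline and 307, 325, 270.3 and 269 CPM in batch 1 bleomycin. It fell with no overlap (adjusted p = 8.19e-05, log2 change -1.25 with SE 0.17), and its batch 2 values of 267, 484, 556 and 392 CPM all lay below saline (log2 change -0.71, adjusted p = 0.00524). Its neighbour and paralog Aldh1a7 fell from 55.9 ± 5.73 to 29.8 ± 3.82 CPM in batch 1 (adjusted p = 0.00475, log2 change -0.91 with SE 0.21), but was 26.2, 56.1, 72.5 and 49.8 CPM in batch 2, around the saline level (log2 change -0.12). Aldh1a3, another retinaldehyde dehydrogenase, was low in saline, at 2.22, 2.55, 1.39, 2.89 and 1.18 CPM, and rose to 2.64, 15.8, 6.77 and 8 CPM in batch 1 (adjusted p = 0.00166, log2 change 2.03 with SE 0.41). Replicate 5 lay within the saline range of Aldh1a3 and replicate 6 was the highest library. Aldh1a2, the form of mesenchyme and mesothelium, shared that order of libraries, with 9.56, 29.6, 16.5 and 24.2 CPM in batch 1 against 10.2, 12.1, 12.3, 9.05 and 11.8 CPM in saline, and lay just outside the threshold (adjusted p = 0.0502, log2 change 0.85 with SE 0.31). Aldh3a1, the airway and corneal form, was not called: saline libraries ran from 13.9 to 78.6 CPM and batch 1 bleomycin libraries from 7.47 to 38.8 CPM (adjusted p = 0.207, log2 change -1.54 with SE 0.87). Of the 6 Aldh members, 3 fell in batch 1 and 1 rose (50% and 16.7%, beside 13.4% and 17.5% of all genes).

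Aldehyde oxidases, which oxidise nitrogen heterocycles and aldehydes, fell for 2 of 3 members in batch 1 (66.7%, beside 13.4% of all genes). Aox3, the main mouse liver form, was at 137, 131, 131, 111 and 152 CPM in saline and 51.8, 35, 35.5 and 33.7 CPM in batch 1 bleomycin, with no overlap (adjusted p = 0.000644, log2 change -1.76 with SE 0.28). In batch 2 it held 28.2, 67.9, 92.3 and 85.2 CPM, all below the saline libraries (log2 change -0.95, adjusted p = 0.022). Aox1 fell from 87.2 ± 18.9 to 58.9 ± 15.2 CPM with overlapping libraries (adjusted p = 0.0389, log2 change -0.57 with SE 0.19), and its call was lost in 9 of 18 alternative fits.

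The hydrolases fell for 4 of 6 Ces1 members and for 1 of 4 Ephx members in batch 1 (66.7% and 25%, beside 13.4% of all genes). Ces1d, the lung carboxylesterase that hydrolyses esters of drugs and lipids, read 188, 267, 232, 212 and 247 CPM in saline, 137, 102, 87.5 and 95.4 CPM in batch 1 bleomycin and 99.5, 181, 199 and 153 CPM in batch 2. Batch 1 lay wholly below saline (adjusted p = 0.000506, log2 change -1.12 with SE 0.19), and batch 2 fell too, with replicate 3 inside the saline range (log2 change -0.53, adjusted p = 0.0422). Ces1b and Ces1e, low-level relatives in the same gene row, fell from 3.04 ± 1.86 to 0.511 ± 0.328 CPM (log2 change -2.57, adjusted p = 0.00763) and from 5.24 ± 1.33 to 1.48 ± 0.455 CPM (log2 change -1.82, adjusted p = 0.00231). Ephx1, the microsomal epoxide hydrolase that opens epoxides made by P450s, was the 1 member that edgeR called between the bleomycin batches over all libraries. It was at 157, 121, 123, 124 and 137 CPM in saline, 90.9, 66.1, 79.7 and 124 CPM in batch 1 bleomycin and 147, 191, 179 and 182 CPM in batch 2. Batch 1 fell against saline, with replicate 8 inside the saline range (adjusted p = 0.00999, log2 change -0.56 with SE 0.15), while batch 2 was not called and had a change above 0 (adjusted p = 0.0501, log2 change 0.40 with SE 0.15). The batches differed from each other (adjusted p = 0.00596, log2 change 0.96 with SE 0.16), and every batch 2 library was above every batch 1 bleomycin library. Ephx2, the soluble epoxide hydrolase of fatty acid epoxides, was 12.5 ± 7.23 CPM in saline and 15.8 ± 7.54 CPM in batch 1, not called (log2 change 0.34, adjusted p = 0.602).

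Among the 20 glutathione S-transferases, which join glutathione to electrophiles, 9 fell in batch 1 (45%, beside 13.4% of all genes). None rose by edgeR (0 at an unadjusted p under 0.05, and 0 by DESeq2 and limma-voom, which called 11 and 10 lower). The median log2 change was -0.39. Gstm1, the most abundant transferase per length at 156 CPM/kb, read 244, 193, 241, 221 and 249.8 CPM in saline, 135, 83.4, 92.1 and 74.3 CPM in batch 1 bleomycin and 62.9, 106, 133 and 107 CPM in batch 2. All 8 bleomycin libraries were below all saline libraries (adjusted p = 0.000487, log2 change -1.26 with SE 0.20 in batch 1, log2 change -1.17 in batch 2). Gsta3, an alpha-class form that detoxifies aflatoxin epoxide in mice, read 89.3, 131, 112, 97 and 129 CPM in saline and 30.9, 34.5, 23.1 and 30.4 CPM in batch 1, a fall with no overlap (adjusted p = 0.000103, log2 change -1.91 with SE 0.24); batch 2 held 24.9, 64.8, 63.6 and 45.7 CPM (log2 change -1.16). Its upstream window is printed as that of an abundant transferase with the antioxidant response core TGACNNNGC, in capitals, starting at -121; it is on the plus strand at chr1:21240425-21240584.
Gsta3: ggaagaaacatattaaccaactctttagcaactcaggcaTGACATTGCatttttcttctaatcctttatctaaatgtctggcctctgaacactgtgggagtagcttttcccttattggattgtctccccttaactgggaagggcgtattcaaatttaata
Gsta4, which takes the lipid peroxidation product 4-hydroxynonenal, fell from 58 ± 14.5 to 28.2 ± 7.33 CPM (adjusted p = 0.0101, log2 change -1.04 with SE 0.27), and Gstm3 from 4.76 ± 1.74 to 0.767 ± 0.21 CPM (adjusted p = 0.00306, log2 change -2.63 with SE 0.59). Gstp1, the pi-class form of epithelia, fell from 20.9 ± 2.23 to 14.6 ± 1.58 CPM (adjusted p = 0.00764, log2 change -0.52 with SE 0.13). Gsto1, the omega-class form that reduces arsenic compounds and is abundant in macrophages, was the one of the 12 most abundant members with no call: 89.1, 112, 65, 58.1 and 109.5 CPM in saline and 44.2, 100.3, 106 and 66.3 CPM in batch 1, with overlapping libraries (adjusted p = 0.806, log2 change -0.13 with SE 0.34). Gsta2, Gstm3, Gstp1 and Gstp2 share from 28.8% to 54.3% of their 50-base words with another gene, so their counts are uncertain. Gsta2 was at 1.29 ± 0.604 CPM in saline and 0.272 ± 0.0425 CPM in batch 1 (log2 change -2.20, adjusted p = 0.0211), and its call was lost without bleomycin replicate 6, 7 or 8. In all, 13 of the 74 members shared 20% or more of these words and 51 under 5%. The summed Gst level was 687 ± 41.2 CPM in saline, 379 ± 21.5 in batch 1 and 461 ± 117 in batch 2.

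The 6 Ugt1 members, which join glucuronic acid to phenols and bilirubin, are made from 1 gene locus with different first exons, and they share from 52.1% to 79.8% of their 50-base words with other genes, so reads over the common part cannot be assigned to 1 of them. Ugt1a7c read 4.01, 3.25, 4.12, 5.53 and 7.72 CPM in saline and 8.78, 10.9, 5.59 and 13.7 CPM in batch 1 bleomycin, rising with overlap (adjusted p = 0.0184, log2 change 0.98 with SE 0.29), and 9.96, 5.92, 4.99 and 6.44 CPM in batch 2, not called. Without bleomycin replicate 6 or 8 of batch 1, or without saline replicate 2, the call on Ugt1a7c was lost, with adjusted p up to 0.0871. Ugt1a6a was 3.01 ± 1 CPM in saline and 2.35 ± 0.65 CPM in batch 1, not called (log2 change -0.34, adjusted p = 0.463). The summed Ugt1 level was 13.4 ± 5.68 CPM in saline and 16.2 ± 3.78 CPM in batch 1.

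**Figure D3:**
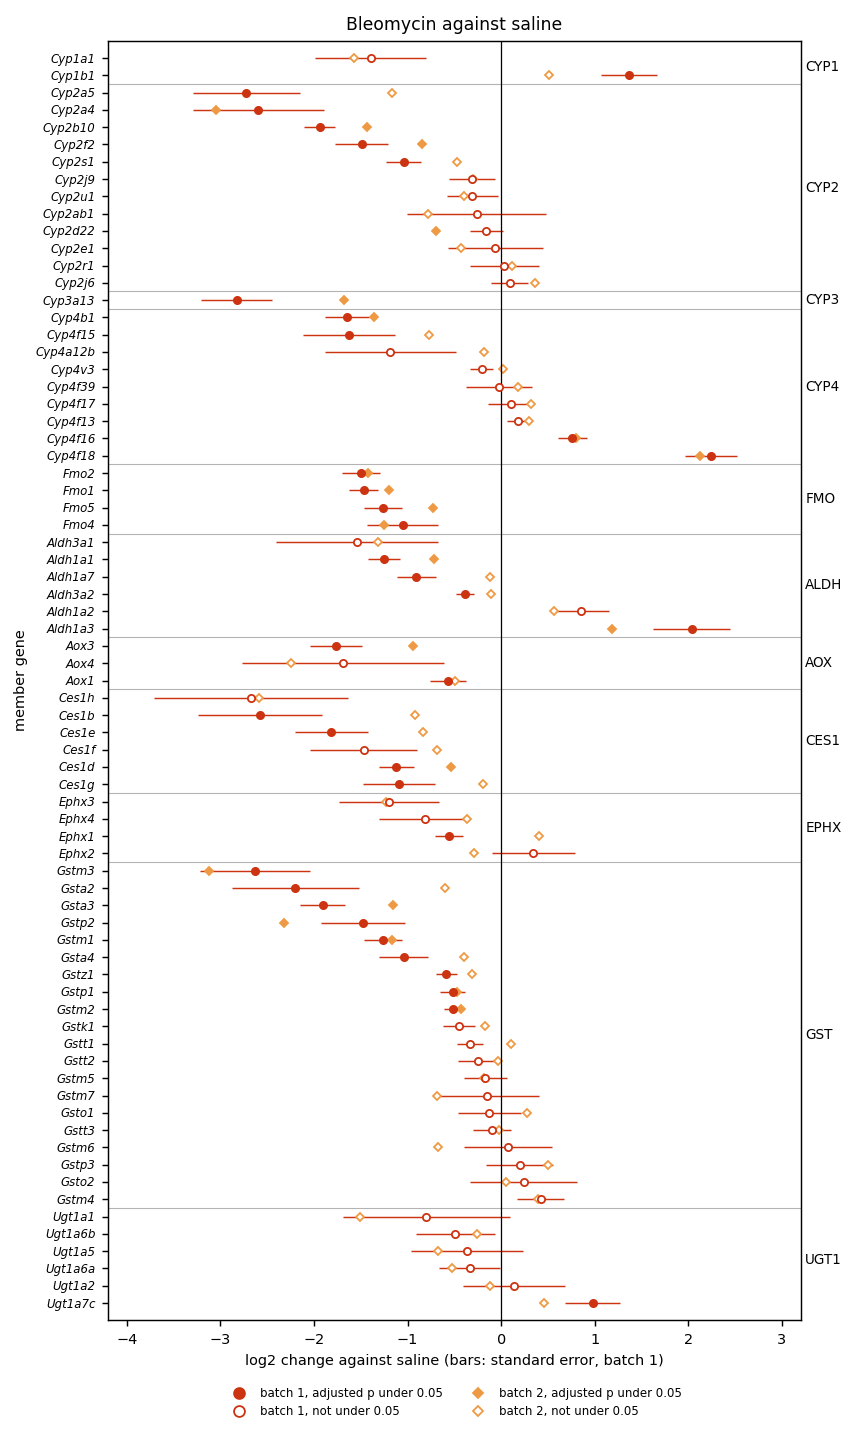
Log2 change against saline for 73 members by family; circles are batch 1 with the standard error, diamonds batch 2, and filled symbols passed an adjusted p under 0.05. The circles of Fmo1, Fmo2, Fmo4 and Fmo5 are filled and left of 0, and the filled symbols right of 0 are Cyp1b1, Cyp4f16, Cyp4f18, Aldh1a3 and Ugt1a7c.

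Beside batch 1, batch 2 had 20 of 74 members lower and 3 higher against saline (27% lower), where 13.2% of all genes were lower and 15.7% higher; the median log2 change of the members was -0.48, beside -0.01 over all genes. The 3 that rose were Cyp4f18, Cyp4f16 and Aldh1a3, which also rose in batch 1. Of the 32 members that fell in batch 1, 19 were also called lower in batch 2 and 13 were not, and no member was called in opposite directions. These counts share the saline libraries, which favours overlap for genes of any kind. The overlap over all genes called lower in batch 1 was not counted. In the direct comparison of the bleomycin batches, Ephx1 was the 1 member called higher in batch 2 (1.35% of members, beside 0.547% of all genes) and no member was called lower (beside 1.13% of all genes). At an unadjusted p under 0.05, 20 members were higher and 2 lower in batch 2, and 2995 of 20468 genes passed in either direction. DESeq2 called 4 members higher and 0 lower, beside 1.47% and 2.13% of all genes. By limma-voom 1 was higher and 0 lower, beside 0.362% and 0.137% of all genes. Batch 2 replicate 1 was the lowest library of its batch for Cyp2f2, Cyp2a5, Aldh1a1, Ces1d and Aox3. Without it, 9 members were called higher in batch 2 than in batch 1 bleomycin, beside 1.11% of all genes. They were Ephx1, Aldh1a1, Aldh1a7, Aox3, Ces1d, Cyp2a5, Cyp2f2, Cyp2s1 and Gsta3. Without batch 1 replicate 5, Cyp1b1 was called lower in batch 2 than in batch 1 (log2 change -1.10, adjusted p = 0.0305).

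Falls were most frequent among the members of high level. At a mean of 20 CPM or more over the 13 libraries, 20 of 25 members fell in batch 1 (80%) and 1, Cyp1b1, rose, while of 7664 genes of all kinds at that level 16.4% fell. From 5 to 20 CPM, 2 of 18 members fell (11.1%, beside 12.9% of all genes), and 2 rose. Under 5 CPM, 10 of 31 fell (32.3%, beside 10.5%), and 2 rose. Members with few counts could meet the count threshold through saline, as Cyp2a4 and Gsta2 mainly did, which favours falls in this class. These are descriptions, and the difference between the classes was not tested.

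**Figure D4:**
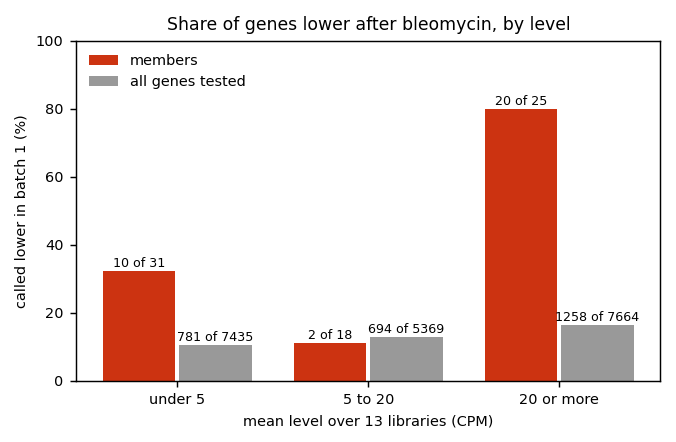
Share of genes called lower in batch 1 bleomycin, in percent, for members (red) and all genes tested (grey) by mean level over the 13 libraries. The members stand at 80% in the highest class, against 16.4% of all genes, and at 11.1% against 12.9% in the middle class.

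Many of these genes sit in rows of related copies. In the order of protein-coding genes on GRCm38.p6, 54 of the 74 members lay in 16 rows in which neighbours were at most 6 genes apart. The neighbours Fmo4, Fmo1 and Fmo2 all fell in batch 1, and so did Cyp2s1, Cyp2b10 and Cyp2a4, the last a member mainly through its saline counts. Cyp2a5 and Cyp2f2, counted as the next row on the same chromosome, fell too. Relatives below the count threshold are not members, so a row can break inside a larger cluster. In other rows the members differed. The 5 neighbouring Cyp4f genes held 1 that rose, Cyp4f16, and 1 that fell, Cyp4f15; the 7 Gstm genes held 3 that fell, Gstm1, Gstm2 and Gstm3. The 3 Gstt, 2 Gsto and 2 Cyp2j neighbours were not called.

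The shares of member promoters with an AHR or NRF2 core were near those of all promoters. Among the fewer members that fell the shares were lower, and no difference was tested. A RefSeq promoter, from 250 bases before to 50 bases after the start, was matched for 60 of the 74. On either strand GCGTG was found in 20 of the 60 (33.3%), in 7 of 28 among those that fell (25%), and in 9500 of 27025 promoters of all genes (35.2%). The core TGACNNNGC was found in 7 of 60 (11.7%), in 1 of 28 that fell (3.57%), the Gsta3 window printed above, and in 14% of all promoters. The closing GC of the second motif can be the opening GC of the first, and each was counted on its own. A match is a run of letters in this window and no more.

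The receptors and partners that control these genes were mostly not called. Of 17 xenobiotic sensors and partners, 15 were tested and none was called in batch 1 by edgeR (1 higher and 1 lower at an unadjusted p under 0.05, 0 by DESeq2, 1 lower by limma-voom); their median log2 change was -0.11. Ahr, the receptor that induces Cyp1a1, was 76.5 ± 4.93 CPM in saline and 95.5 ± 16.1 CPM in batch 1 (log2 change 0.32, adjusted p = 0.0647), and Ppara, the fatty acid receptor that induces Cyp4a genes, had a log2 change of -0.86 (adjusted p = 0.103). Nr1i3, which encodes the receptor CAR, and Hnf4a did not pass the filter on low counts. Nfe2l2, which encodes NRF2, had log2 changes of 0.14 in batch 1, not called, and 0.24 in batch 2 (adjusted p = 0.0425). In batch 2, 2 of the 15 tested sensors and partners were called higher, Nfe2l2 among them, and 1 was called lower. Among 18 other NRF2 targets, edgeR called 16.7% higher and 11.1% lower in batch 1, near the 17.5% and 13.4% of all genes. At an unadjusted p under 0.05, 7 were higher and 2 lower, where 8490 of 20468 genes passed in either direction. Their median log2 change was 0.23. In batch 2, 5 of the 18 were called higher and 1 lower, beside 15.7% and 13.2% of all genes. The 3 that rose in batch 1 were Slc7a11, the cystine carrier (log2 change 1.86), Pgd (0.45) and Txnrd1 (0.33). The 2 that fell in batch 1 were Osgin1 (-0.82) and Gclm (-0.58), a subunit of the glutathione-making ligase.

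Of 10 genes that supply the P450s with electrons and haem, 5 fell in batch 1 (50%, beside 13.4% of all genes) and none rose by edgeR (1 higher at an unadjusted p under 0.05, 0 by DESeq2 and limma-voom); the median log2 change was -0.22. Por, the reductase that all microsomal P450s need, read 171, 213, 203, 185 and 207 CPM in saline, 98.2, 83.4, 91.5 and 120.5 CPM in batch 1 bleomycin and 123, 189, 237 and 165 CPM in batch 2. It was lower in every batch 1 bleomycin library than in any saline library (adjusted p = 0.000262, log2 change -0.99 with SE 0.16), but in batch 2 it overlapped saline (log2 change -0.13). Cyb5a, the cytochrome b5 that can pass on the other electron, fell from 136 ± 18.2 to 67.1 ± 3.79 CPM (adjusted p = 3.09e-06, log2 change -1.02 with SE 0.10). Pgrmc1, a haem-binding P450 partner, had a log2 change of -0.94, and Alas1, the first enzyme of haem synthesis, one of -0.54 (adjusted p = 1.14e-05 and 0.0287).

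Of 37 tested enzymes of other phase I and II families, 12 fell and 6 rose in batch 1, with a median of -0.25. The share that fell was 32.4%, beside 13.4% of all genes, and the share that rose was 16.2%, near the 17.5% of all genes. Cbr2, the carbonyl reductase of the lung, fell from 1237 ± 149 to 280.1 ± 40.8 CPM (adjusted p = 0.00023, log2 change -2.14 with SE 0.30), and Aldh2, the mitochondrial acetaldehyde dehydrogenase, from 278 ± 14.8 to 166 ± 16.7 CPM (adjusted p = 0.000166, log2 change -0.74 with SE 0.11). Hpgds, the haematopoietic prostaglandin D synthase, which is itself a sigma-class glutathione transferase, rose (adjusted p = 7.63e-06, log2 change 2.34 with SE 0.25), as did Akr1b8, an aldo-keto reductase (adjusted p = 0.000171, log2 change 1.47 with SE 0.22). Of 18 tested transporters, 3 rose (16.7%, near the 17.5% of all genes): Abcc4 and Abcc5, export pumps, with log2 changes of 0.50 and 0.38, and Slco4a1, an uptake carrier, with 1.37; Slco4c1, the uptake carrier with the next lowest p, had a log2 change of -0.92 (adjusted p = 0.0714). None of the 18 fell by edgeR, 2 were lower at an unadjusted p under 0.05, and DESeq2 called 1 lower and limma-voom 2.

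Markers of lung cell types were read in the same libraries. Which cells made the members was not measured, and in bulk tissue fewer cells of a type and less RNA per cell cannot be told apart. The 10 club cell markers summed to 6372 to 12626 CPM with saline, 2629 to 3895 CPM with bleomycin in batch 1 and 2349 to 6875 CPM in batch 2; 3 of the 10 fell in batch 1 and the median log2 change was -0.60. Scgb1a1, the main club cell secretory protein gene, made up most of that sum, at 5746 to 10999.5 CPM with saline and 1801 to 2819 CPM with bleomycin in batch 1. The other 9 club markers summed to 626 to 1627 and 666 to 1076 CPM in these groups, which overlap, and to 352 to 1669.9 CPM in batch 2. No club, ciliated or alveolar marker was at 0 in any library. Ciliated cell markers fell for 9 of 10, with sums of 593 to 898, 315 to 385 and 235 to 679 CPM in the same order of groups. Alveolar type 2 markers fell for 5 of 10 (7213 to 9311, 3093 to 6372 and 4009.9 to 9790.3 CPM) and alveolar type 1 markers for 5 of 8 (3399 to 4202, 1565 to 2822 and 2337 to 3146 CPM). Alveolar fibroblast markers fell for 7 of 8 (1709 to 2084, 969 to 1415 and 1069 to 1497 CPM) and capillary endothelium markers for 6 of 8 (4363 to 5511, 2564 to 3224 and 2817 to 3248 CPM). In the other direction, 7 of 8 matrix fibroblast markers rose (1154 to 1518, 4081 to 12722 and 5755 to 12809 CPM), as did 7 of 8 macrophage markers (1419.8 to 1787, 1782 to 2195 and 2426 to 2906 CPM) and 6 of 8 lymphocyte markers (17.2 to 38.9, 66.5 to 79.8 and 47 to 91.8 CPM). Batch 2 replicate 1 had the lowest club and ciliated sums of its batch, and batch 1 replicate 5, inside the saline range for Cyp1b1 and Aldh1a3, had the lowest matrix fibroblast sum of the bleomycin libraries. Over all genes tested, 13.4% fell and 17.5% rose in batch 1. The part of these cell types in the enzyme changes was not tested.

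Of 8 hepatocyte markers, 3 passed the filter and none was called by edgeR, DESeq2 or limma-voom (1 higher at an unadjusted p under 0.05). The list was near 0 in these sections, with sums of 2.26 to 5.1 CPM in saline and 2.44 to 4.83 CPM in batch 1; Apoa1, Serpina1a and Serpina1b were at 0 in 11 of 13 libraries and Fgb in 12. Heart markers varied between libraries, with sums of 610.4 to 978 CPM in saline, 593 to 4054 in batch 1 and 104 to 2829 in batch 2; none of the 6 was called by edgeR, DESeq2 or limma-voom or had an unadjusted p under 0.05, and their part in the result was not tested. Mesothelium markers fell for 3 of 7 and rose for 1 (42.9% and 14.3%), and smooth muscle markers fell for 3 of 7 (42.9%). Alveolar macrophage markers fell for 2 of 8 and rose for 1 (25% and 12.5%). Over all genes 13.4% fell and 17.5% rose. None of the 5 adipocyte markers was called by edgeR, DESeq2 or limma-voom, with 0 at an unadjusted p under 0.05.

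**Figure D5:**
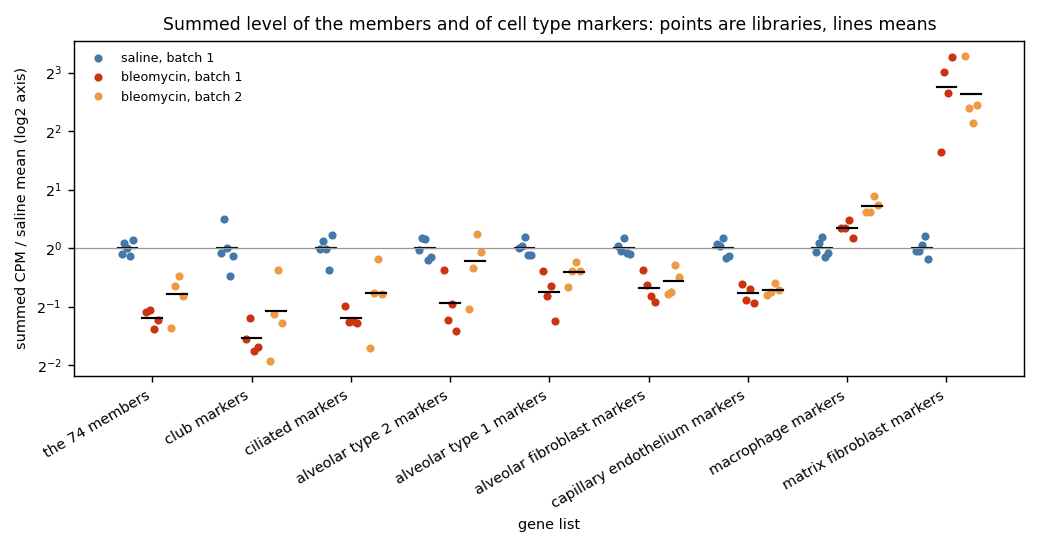
Summed CPM of the members and of the cell type marker lists, divided by the saline mean of the same sum, on a log2 axis; each point is 1 library and each line a group mean. The members, club and ciliated lists lie below 1 in batch 1, the club list mainly through Scgb1a1, and the matrix fibroblast list lies above 1 in all 8 bleomycin libraries.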

How the data were processed

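RNA from 13 mouse lung sections was sequenced with a stranded total RNA kit for low input. The deposited counts are whole numbers per gene; per the submitters' processing notes the authors used cutadapt 4.4, STAR 2.7.10b, featureCounts 2.0.3 and DESeq2 1.42.1 with build mm39. Neither the annotation nor the strand setting is stated in the labels. Among values from 1 to 10, 78.4% to 86.1% per library were even, as can arise when both ends of a fragment are counted. Whether both ends were counted is not known, so counts may overstate the number of fragments. The authors' deposited normalized table was not used.

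edgeR 4.0.16 was fitted to all 20468 genes kept by filterByExpr in all 13 libraries and 3 groups (TMM factors, robust quasi-likelihood test), with Benjamini-Hochberg adjustment over all genes tested and calls at an adjusted p under 0.05. SE is the log2 change divided by the square root of the F statistic. CPM uses TMM-scaled totals, and CPM/kb the summed exon length of GENCODE gene models on GRCm38, used for length only. Alternatives were DESeq2 1.42.0, its size factors in edgeR, no filter, limma-voom (limma 3.58.1), each library left out, batch 1 alone and a replicate block. The code was tested on simulated data.

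Nothing in the labels says that the libraries are from separate animals, so the spread behind each p-value may be technical. No 2 libraries of a group agreed within counting noise (chi-square per degree of freedom from 10.1 to 267 over 22 pairs). The highest values, 162, 257 and 267, were the pairs of bleomycin replicate 8 of batch 1, the library with conflicting labels. The other pairs of that group ran from 36.4 to 84.1. This measure grows with depth, and replicate 8 was the deepest library, with 28885129 counts. The members and the pathway and marker lists were chosen with earlier results of these data known. Named members were the 12 most abundant in batch 1 libraries, up to 10 called rises and 10 called falls of at least 1 CPM in the higher group, and a fixed list of familiar genes; Fmo4, Fmo5, Cyp4f15, Gstm2 and Gstp2 were named after their values were seen. Of each pathway list up to 4 genes with the lowest p are named, and Txnrd1, Nr1i3 and Hnf4a were added after their values were seen. Sequence shared between genes was counted as 50-base words of a gene's transcripts found in another gene. 1 member is counted in the totals and is not reported by name here.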

Additional observations from a re-analysis of the deposited data

Results flagged for a closer look

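In 4 of 108 sets of values (3.7%), each a member or the members' sum in 1 group, 1 library stood far from the others of its group; chance alone marks about 1 in 20. Aldh3a1 was at 38.8 CPM in bleomycin replicate 8 of batch 1, the library with conflicting labels, and at 7.47 to 10.9 CPM in the other 3. Aox3 was at 51.8 CPM in bleomycin replicate 5 of batch 1 and at 33.7 to 35.5 CPM in the other 3. Saline replicate 2 was high for Cyp2a4, at 3.60 CPM where the other 4 ran from 0.880 to 1.66 CPM, and for Fmo1, at 237 CPM where the others ran from 197 to 208 CPM. All these values stayed in the fits, and Aox3 and Fmo1 kept their calls in batch 1 without the library concerned.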

How the results depend on the processing

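The 32 lower and 5 higher members of batch 1 became 28 to 37 and 4 to 6 over all alternatives. Over all genes those fits called 5.86% to 17.2% lower and 9.11% to 18.8% higher. Without bleomycin replicate 8 the members were 31 and 4, beside 12.8% and 13.8% of all genes. Of the 37 called members, 31 kept the call in every one of up to 18 alternatives. The others were Ces1g (lost in 10), Aox1 and Fmo4 (9 each), Gsta2 and Ugt1a7c (3 each) and Cyp4f15 (1). Without batch 1 replicate 6, 7 or 8 Gsta2 reached an adjusted p of up to 0.0571, and without saline replicate 5 Cyp4f15 reached 0.0528. Cyp1a1 was called lower by DESeq2 and limma-voom, and Aldh1a2 higher in 5 alternatives. Without bleomycin replicate 5 of batch 1 the uncalled Ephx2 and Gsto1 changed sign, to log2 changes of -0.032 and 0.071 (adjusted p = 0.965 and 0.895); with 1 library left out at a time Ephx2 ran from -0.032 to 0.67 and Gsto1 from -0.30 to 0.071. The cause was not tested. Between the bleomycin batches DESeq2 called 4 members higher in batch 2, beside 1.47% of all genes. Leaving out 1 library at a time gave 1 to 9 higher and 0 to 1 lower. Over all genes those fits called 0.242% to 1.99% higher and 0.434% to 3.3% lower.

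In the library names, replicate numbers 1 to 4 occur in both saline and batch 2 bleomycin. Same-numbered libraries did not deviate together (r = -0.131, -0.347, -0.102 and -0.125), and none matched its own number best. These numbers therefore gave no sign of pairing. The titles number the saline libraries differently, and that numbering was not tested. With the replicate block, 17 members were lower and 2 higher in batch 2, beside 11.9% and 13.4% of all genes. In the same 8 libraries without it they were 18 and 4, beside 14.5% and 16.2% of all genes. Under the other alternatives batch 2 gave 17 to 24 lower and 2 to 4 higher, beside 6.48% to 16% and 7.09% to 16.6% of all genes. Depth limits the members under 5 CPM, above all in batch 2 replicates 1 and 4.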
